A study of Mus musculus with 6 samples.

Results

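The erythropoietin receptor and the JAK-STAT proteins that act with it were followed in E14.5 fetal liver (FL) cells through 10 genes: the receptor Epor, the kinases Jak1, Jak2 and Tyk2, the transcription factors Stat3, Stat5a and Stat5b, and the feedback inhibitors Socs2, Socs3 and Cish. Every array probe set annotated to exactly 1 gene, where that gene was one of these, was taken. This gave 26 probe sets of the 45037 that are not controls. FL cells of 3 Pogz-/- and 3 Pogz+/+ embryos were each measured on 1 Affymetrix mouse array. Pogz encodes a zinc-finger protein. The Pogz-/- embryos lacked it in every tissue, since they came from crosses of Pogz+/- mice in which β-actin-cre had removed the last exons. All embryos were at E14.5 on a C57BL/6 background (backcrossed more than 10 generations). The livers were minced and strained without a sort, so blood cells of all kinds and liver cells were measured together.

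Erythropoietin binds its receptor on erythroid progenitors and activates JAK2, which is bound to the inside of the receptor. JAK2 phosphorylates STAT5A and STAT5B, which then enter the nucleus and switch on survival genes and also Cish, Socs2 and Socs3, whose proteins dampen the signal. JAK1 and TYK2 serve receptors of other cytokines, such as interferons and the interleukin-6 family, for which STAT3 is a main carrier. The fetal liver is the main site of red cell production at this stage.

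The arrays did not all behave alike. Pogz+/+ replicate 1 stood apart, with a β-actin ratio of 3' to 5' signal of 52.3, against 5.50 and 6.63 in the other Pogz+/+ arrays. This ratio rises where RNA or labelled target is shorter, and it was 3.72 to 4.09 in Pogz-/- arrays. Median intensity was 29.7 to 31.6 in Pogz-/- arrays and 36.0 to 54.3 in Pogz+/+ arrays, with the highest value in replicate 1. Results are therefore given over all 6 arrays and over the 5 that remain without replicate 1. Values are log2 of the deposited intensity, and a log2 fold change is Pogz-/- minus Pogz+/+. Over all probe sets its median was -0.23 with 6 arrays and -0.13 with 5. The deleted gene could not check the labels: it is not known here whether the 4 Pogz probe sets lie in the deleted exons, and the brightest had means of 9.24 ± 0.09 in Pogz-/- FL and 9.05 ± 0.11 in Pogz+/+ FL (SD, n = 3 each).

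STAT5 dimers bind DNA at TTCNNNGAA, where N is any base, and erythroid GATA factors bind AGATAA, so both motifs were searched in the window from 250 bases before to 50 bases after each gene's start (RefSeq, GRCm38.p6, both strands). Windows were found for 9 of the 10 genes, with Socs2 not searched, and 11 windows were read because Stat5a and Stat5b had more than 1. The lines below show the stretches that held a motif, 5' to 3' on the strand of the gene, with the motif in capitals. They are from the promoters of Cish and Socs3, the inhibitors that were searched, and of the receptor.
Cish: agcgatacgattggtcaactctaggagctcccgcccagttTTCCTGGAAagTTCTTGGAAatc
Socs3: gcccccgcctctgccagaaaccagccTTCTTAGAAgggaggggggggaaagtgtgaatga
Epor: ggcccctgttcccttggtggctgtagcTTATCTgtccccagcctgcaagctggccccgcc

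The Cish stretch lies at chr9:107296619-107296681 on the plus strand and holds 2 copies of the STAT motif, which begin 11 bases apart without overlap, the first at base 1 of the annotated transcript. The Socs3 stretch is chr11:117969487-117969546 on the minus strand, with 1 copy that begins at base -154. The Epor stretch is chr9:21963598-21963657 on the minus strand. Its motif begins at base -54 and reads TTATCT, which is AGATAA on the other strand. TTCNNNGAA occurred in 2 of the 11 member windows and in 8.30% of the 32851 windows of all genes, and AGATAA in 1 member window and in 11.2% of all windows. A match describes letters and does not show a site in use, and these arrays did not measure binding.

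**Figure D1:**
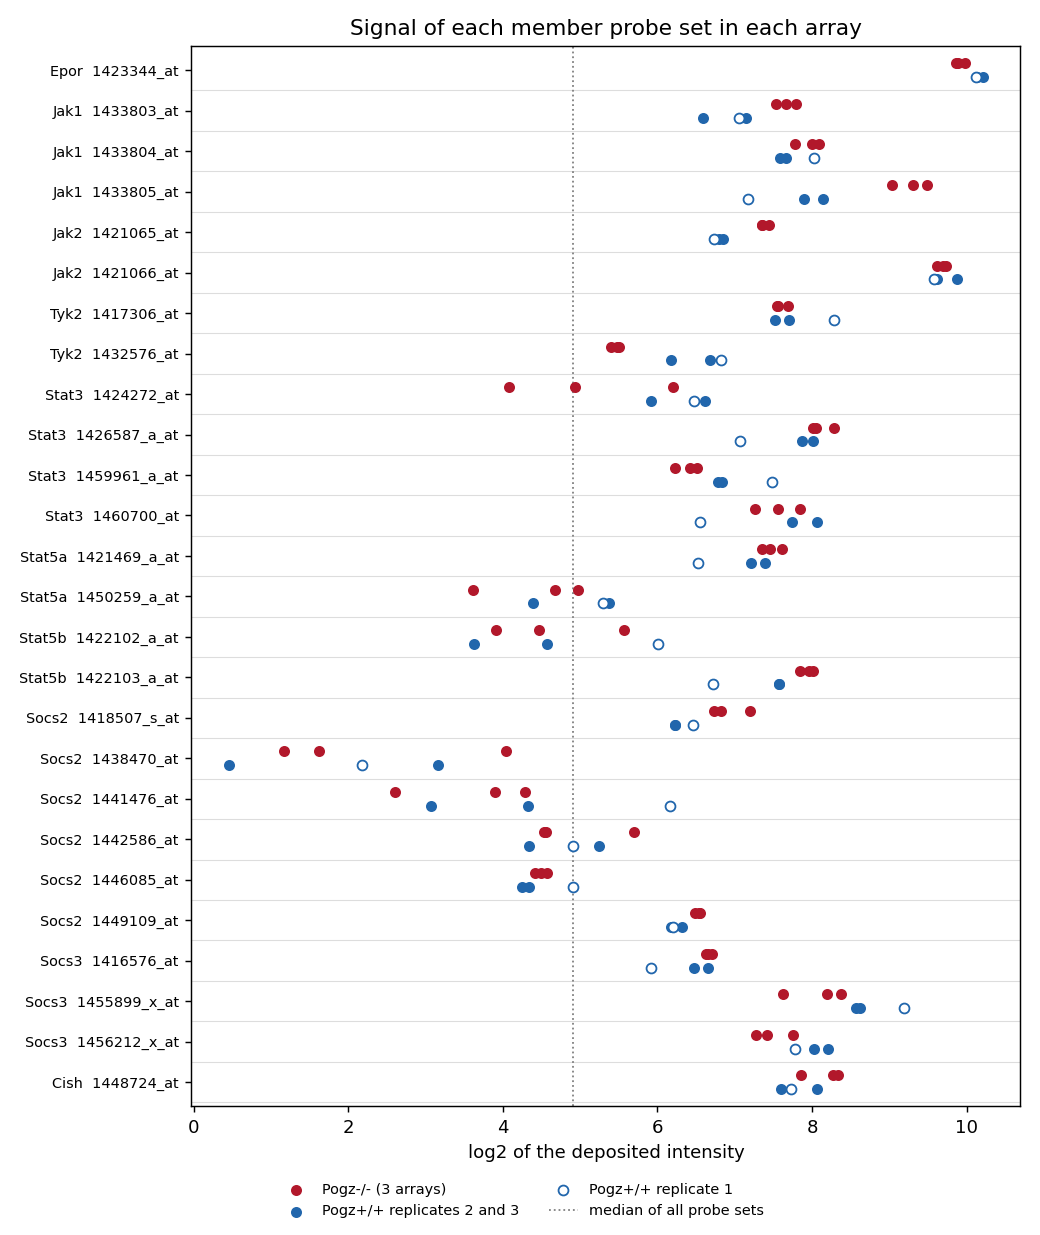
Log2 of the deposited intensity (x axis) of the 26 member probe sets (y axis), 1 point for each array: red for Pogz-/- and blue for Pogz+/+, with Pogz+/+ replicate 1 as an open circle and the median of all probe sets, 4.91, as a dotted line. The 3 Pogz-/- points of Jak1 1433805_at lie at 9.04 to 9.49, to the right of all Pogz+/+ points, which end at 8.15.

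No member probe set passed an adjusted p of 0.05 over 6 arrays (limma, plain fit), nor did any of the 45037 probe sets (0%). At an unadjusted p under 0.05, 3 member probe sets were higher and 1 was lower in Pogz-/- FL. Of all 45037 probe sets, 1350 were higher and 3930 lower at that threshold, 11.7% in either direction. With limma's trend and robust settings over 6 arrays, again no member passed and 0.0377% of all probe sets did. Without Pogz+/+ replicate 1 and with these settings, 1 member probe set rose, against 1.45% of all probe sets, and 0 fell, against 1.22%. The probe set that rose was Jak1 1433805_at. The Pogz-/- arrays lay entirely above the Pogz+/+ arrays for 7 member probe sets (9.10% of all probe sets did so) and entirely below for 5 (15.8% of all). The median log2 fold change of the members was 0.10 over 6 arrays and 0.15 over 5, above the medians of all probe sets. Of the 26 probe sets, 20 had a mean signal at or above the median of the array and 6 were dimmer, 4 of them for Socs2.

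Epor had 1 probe set, 1423344_at, and encodes the receptor itself. Its signal was 9.97, 9.89 and 9.86 in Pogz-/- FL and 10.12, 10.14 and 10.21 in Pogz+/+ FL. The arrays of each genotype lay close together and did not overlap, with Pogz-/- the lower. The log2 difference was -0.25 (SE 0.22, adjusted p = 0.626 by limma over 6 arrays), which did not pass the test, and it was -0.27 (SE 0.10, adjusted p = 0.230, trend and robust) without replicate 1. It was close to the median of all probe sets, -0.23, and its sign depended on the scale. After each array was centred on its median it was 0.21, again close to the median of all probe sets, 0.23. After quantile normalization over 6 arrays Epor was at -0.34, below the median of all probe sets, 0.002. Signal from erythroid markers was lower as well on the deposited scale. The summed intensity of the 6 erythroid markers that had a probe set, of 10 listed, was 32442 to 34672 in Pogz-/- FL and 47357 to 70864 in Pogz+/+ FL, with 4 of the 6 markers lower in every Pogz-/- array and none at 0. Scale mattered here too. After median centring over 6 arrays, with the median of all probe sets at 0.23, Slc4a1 was at -0.61 and Hba-a1 at -1.38. Klf1 was at 0.04, Alas2 at 0.02, Rhag at 0.29 and Epb42 at 0.48. After quantile normalization these 6 were at -0.54, -1.39, -0.15, -0.20, -0.01 and 0.03 in the same order. The median of all probe sets was then 0.002. Hba-a1, 1 of the 4 lower in every Pogz-/- array, was dim, with a mean signal of 4.61, below the median of all probe sets, 4.91. The sums of hepatocyte, macrophage and B cell markers were also lower in every Pogz-/- array, but their markers did not move together. Single markers lower in every Pogz-/- array were 1 of 5 for hepatocytes, 2 of 6 for macrophages and 1 of 2 for B cells. Among hepatocyte markers Afp was at -0.96 and Alb at 0.75 over 6 arrays, Alb with overlap. In RNA from whole FL, fewer cells of a type and less RNA per cell cannot be told apart, and the part of the erythroid markers in the Epor value was not tested.

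The genes whose signal followed that of Epor most closely over the 6 arrays were Txnrd2, a mitochondrial thioredoxin reductase (r = 0.989), Cdca3, a cell division protein (r = 0.985), Anapc15, a subunit of the anaphase-promoting complex (r = 0.985), Kif23, a kinesin of cytokinesis (r = 0.983), and Wfdc3 (r = 0.983). They are the highest of 10911 genes, and the 6 arrays share the difference in scale between genotypes, so the correlations are only a description.

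Jak1 was measured by 3 probe sets, all higher in Pogz-/- FL. Its 1433805_at had 9.04, 9.49 and 9.30 in Pogz-/- FL and 7.17, 8.15 and 7.90 in Pogz+/+ FL. Every Pogz-/- array was above every Pogz+/+ array, and the lowest value was that of Pogz+/+ replicate 1. The log2 fold change was 1.54 (SE 0.35), a 2.90-fold difference in intensity, with an adjusted p of 0.372 by limma over 6 arrays. Without Pogz+/+ replicate 1 it rose by 1.25 (SE 0.16), or 2.38-fold, with an adjusted p of 0.00304 by limma with trend and robust. That call needed both changes: with trend and robust over all 6 arrays the adjusted p was 0.0828, and with trend and robust without any one of the other 5 arrays no member was called. Over its 24 alternative settings the adjusted p ran between 0.000364 and 0.629 and the log2 fold change between 1.06 and 2.00.

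Both other Jak1 probe sets moved less. For 1433803_at the signal was 7.80, 7.53 and 7.67 in Pogz-/- FL and 7.06, 6.58 and 7.14 in Pogz+/+ FL. The groups did not overlap, and the log2 fold change was 0.74 (SE 0.27, adjusted p = 0.409 by limma over 6 arrays), or 0.80 (SE 0.21, adjusted p = 0.0742, trend and robust) without replicate 1. For 1433804_at the signal was 8.08, 7.99 and 7.78 in Pogz-/- FL and 8.02, 7.66 and 7.58 in Pogz+/+ FL. Here the groups overlapped through replicate 1, and the log2 fold change was 0.20 (SE 0.26, adjusted p = 0.745 over 6 arrays). Without replicate 1 they did not overlap, and it was 0.33 (SE 0.16, adjusted p = 0.363, trend and robust). The 3 probe sets therefore shared a direction but gave values between 0.20 and 1.54 over 6 arrays and between 0.33 and 1.25 over 5. The 3' to 5' ratio moved with genotype too. With the β-actin ratio as a covariate the value of 1433805_at was 1.06 (adjusted p = 0.455 by limma).

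Jak2, the kinase that the erythropoietin receptor uses, had 2 probe sets that did not move together. The dimmer one, 1421065_at, had 7.35, 7.36 and 7.45 in Pogz-/- FL and 6.74, 6.85 and 6.80 in Pogz+/+ FL. All Pogz-/- arrays were higher, and the spread within each genotype was small. Its log2 fold change was 0.59 (SE 0.22), with an adjusted p of 0.413 by limma over 6 arrays, and 0.56 (SE 0.18, adjusted p = 0.155, trend and robust) without replicate 1. The brighter one, 1421066_at, had 9.62, 9.73 and 9.69 in Pogz-/- FL and 9.57, 9.61 and 9.87 in Pogz+/+ FL. The groups overlapped throughout, and the log2 fold change was -0.01 (SE 0.23, 95% confidence interval -0.58 to 0.57). The genes most like 1421066_at over the 6 arrays were 2810408A11Rik (r = 0.970), Samhd1, a dNTP hydrolase (r = 0.952), Meak7 (r = 0.950), Smyd4 (r = 0.947) and Rsbn1 (r = 0.937), again as a description only.

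**Figure D2:**
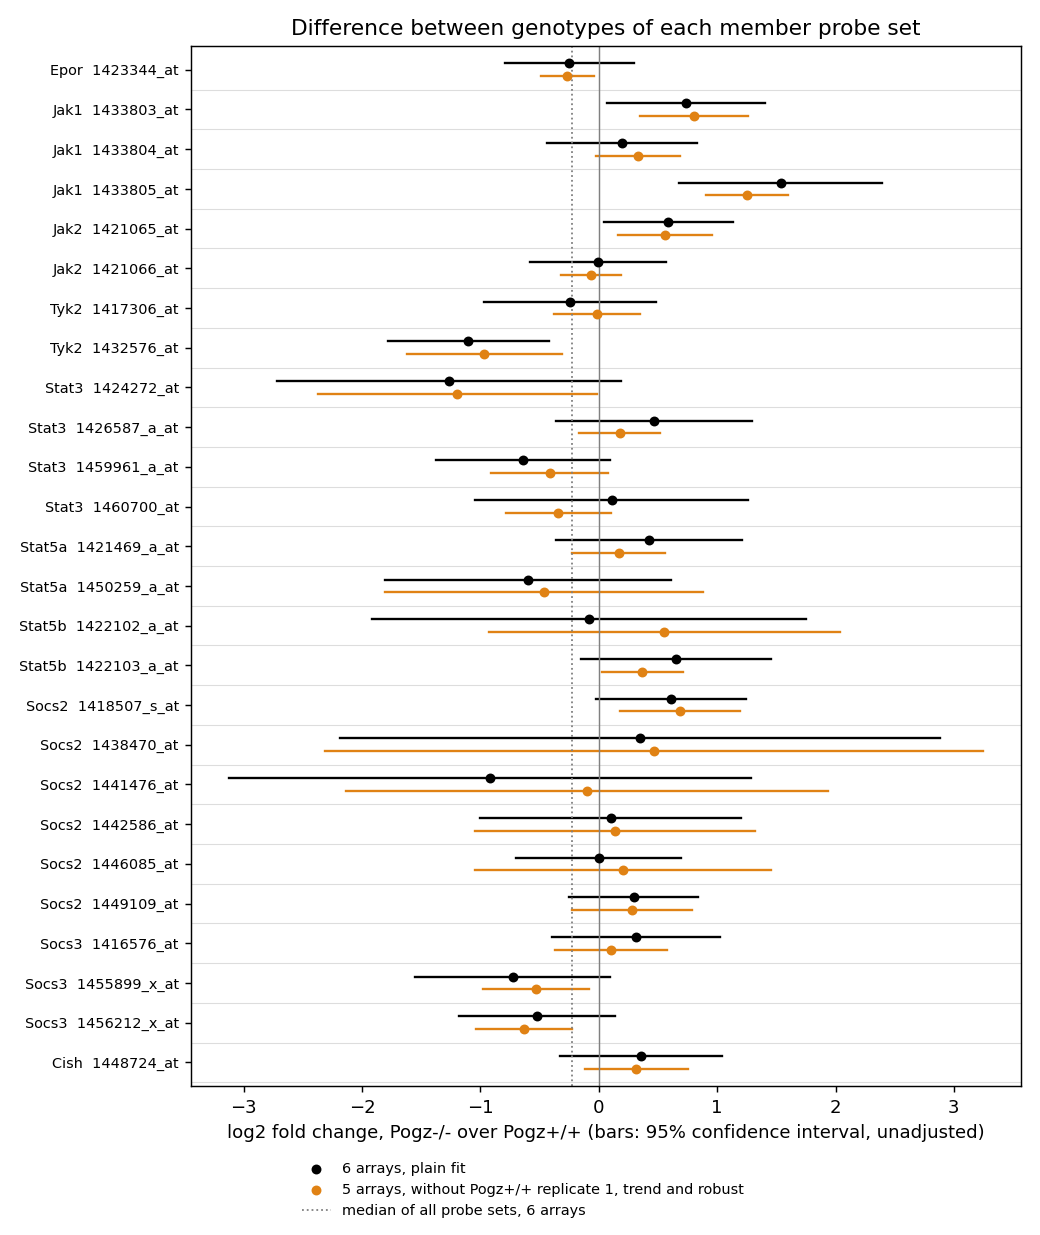
Log2 fold change, Pogz-/- over Pogz+/+ (x axis), of each member probe set (y axis), over 6 arrays in black and over 5 arrays without Pogz+/+ replicate 1 in orange. Bars are 95% confidence intervals that are not adjusted for the number of probe sets, and the dotted line is the median of all probe sets over 6 arrays, -0.23. Jak1 1433805_at lies farthest to the right at 1.54 and 1.25, while other probe sets of the same genes lie nearer to 0.

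Whether Jak1 and Jak2 moved unequally was asked within each array, since the difference of 2 log2 signals on an array does not depend on how that array was scaled. It can still depend on the length of RNA or labelled target, which was not tested for these pairs. The Gapdh ratio of 3' to 5' signal was 4.87 to 5.08 in Pogz-/- arrays and 15.3, 7.37 and 9.29 in Pogz+/+ arrays. Probe sets of Jak1 alone also moved unequally, by 1.54 for 1433805_at and 0.20 for 1433804_at over 6 arrays. For the probe set of each gene with the highest mean over the 6 arrays, Jak1 1433805_at minus Jak2 1421066_at was -0.58, -0.24 and -0.39 in Pogz-/- FL and -2.41, -1.47 and -1.97 in Pogz+/+ FL. The level of one probe set cannot be compared with that of another, so only the shift between genotypes can be read. All Pogz-/- arrays were above all Pogz+/+ arrays, and the shift was 1.55. Without Pogz+/+ replicate 1 the shift was 1.32. The choice of this Jak1 probe set was not independent of the shift. Its mean was 9.28 in Pogz-/- FL, against 7.95 for 1433804_at, but 7.74 in Pogz+/+ FL, against 7.75 for 1433804_at. Over all 6 arrays it thus ranked first through the Pogz-/- arrays. The order in Pogz+/+ FL came from replicate 1, with 7.17 against 8.02 for 1433804_at. Without that array 1433805_at was the brighter in Pogz+/+ FL too, with a mean of 8.02 against 7.62. Because the choice used the Pogz-/- values, the values of this pair are a description, and no test is read from them.

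Jak1 1433804_at ranked first in Pogz+/+ FL only with replicate 1 included. For it minus the same Jak2 1421066_at, the shift was 0.21 and the groups overlapped (exact permutation test over arrays, two-sided p = 0.4, n = 3 each). Without replicate 1 the shift of this pair was 0.40. The other pairs gave a mixed answer. With Jak1 1433805_at and Jak2 1421065_at the shift was 0.95, or 0.69 without replicate 1. With Jak1 1433803_at and Jak2 1421066_at it was 0.75, or 0.87 without replicate 1. The groups of these pairs did not overlap, and for the second the exact p was 0.1, the smallest that 3 arrays against 3 allow, or 0.15 after adjustment over the 6 pairs. The shift was 0.15 for Jak1 1433803_at and Jak2 1421065_at (exact p = 0.7), or 0.24 without replicate 1. For Jak1 1433804_at and Jak2 1421065_at the sign turned, with a shift of -0.39 (exact p = 0.1), or -0.23 without replicate 1, and all Pogz-/- arrays below the Pogz+/+ arrays. The shift was positive in 5 of 6 pairs, and which probe set stood for each kinase decided the size.

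**Figure D3:**
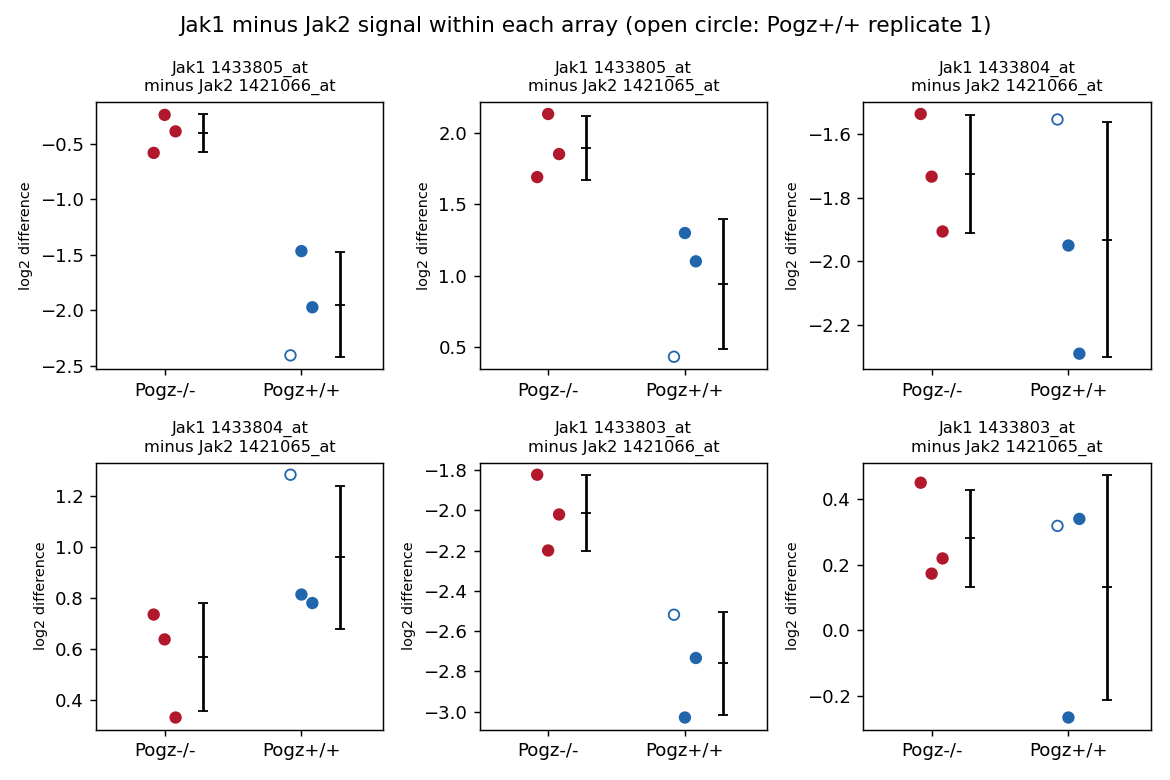
Log2 signal of a Jak1 probe set minus that of a Jak2 probe set in the same array (y axis) for each of the 6 pairs, Pogz-/- to the left of Pogz+/+. Circles are arrays (open: Pogz+/+ replicate 1) and bars are the mean ± SD of 3 arrays. The shift between genotypes is largest, 1.55, for the first pair, and is reversed, -0.39, for Jak1 1433804_at minus Jak2 1421065_at.

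Tyk2, the kinase of interferon and interleukin-12 family receptors, was measured by 2 probe sets. For 1432576_at the signal was 5.47, 5.50 and 5.40 in Pogz-/- FL and 6.83, 6.17 and 6.68 in Pogz+/+ FL. The Pogz-/- arrays were tightly grouped below all Pogz+/+ arrays, and the log2 fold change was -1.10 (SE 0.27, adjusted p = 0.378 by limma over 6 arrays), or -0.97 (SE 0.30, adjusted p = 0.133, trend and robust) without replicate 1. It was the 1 member probe set that was lower at an unadjusted p under 0.05. The brighter 1417306_at had 7.56, 7.68 and 7.55 in Pogz-/- FL and 8.29, 7.71 and 7.52 in Pogz+/+ FL. There the 2 genotypes differed mainly through replicate 1, since the log2 fold change was -0.24 with it and -0.02 without it.

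The STAT genes had 8 probe sets, 4 higher and 4 lower in Pogz-/- FL over 6 arrays, with a median log2 fold change of 0.01. None was called with 6 arrays or with 5 (lowest adjusted p = 0.444 by limma and 0.283 with trend and robust). Stat5b and Stat5a, the STATs of the erythropoietin receptor, lie side by side with Stat3 in the mouse genome. Stat5b 1422103_a_at had 7.96, 8.02 and 7.84 in Pogz-/- FL and 6.72, 7.57 and 7.57 in Pogz+/+ FL. No Pogz-/- array was as low as the highest Pogz+/+ array, but the gap was widest for replicate 1. The log2 fold change was 0.65 (SE 0.32, adjusted p = 0.461 over 6 arrays), and it was 0.37 (SE 0.16, adjusted p = 0.283, trend and robust) without replicate 1. The second Stat5b probe set, 1422102_a_at, was below the median of all probe sets and ran between 3.92 and 5.56 in Pogz-/- FL and between 3.63 and 6.01 in Pogz+/+ FL. Its log2 fold change was -0.08 over 6 arrays and 0.55 without replicate 1.

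Stat5a 1421469_a_at had 7.61, 7.35 and 7.45 in Pogz-/- FL and 6.53, 7.40 and 7.21 in Pogz+/+ FL. The groups overlapped, and only replicate 1 was far below the rest. The log2 fold change was 0.43 (SE 0.32, adjusted p = 0.571 by limma) with replicate 1 and 0.17 (SE 0.18, adjusted p = 0.704, trend and robust) without it. The other Stat5a probe set, 1450259_a_at, was dim in both genotypes, at 3.61 to 4.97 in Pogz-/- FL and 4.39 to 5.37 in Pogz+/+ FL.

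Stat3, which carries signals of the interleukin-6 family, had 4 probe sets that disagreed in sign. Stat3 1426587_a_at had 8.28, 8.02 and 8.05 in Pogz-/- FL and 7.07, 8.01 and 7.87 in Pogz+/+ FL. Apart from replicate 1 the genotypes were nearly level, and the log2 fold change was 0.46 over 6 arrays and 0.18 without replicate 1. Stat3 1460700_at had 7.56, 7.85 and 7.26 in Pogz-/- FL and 6.55, 8.06 and 7.74 in Pogz+/+ FL. Its log2 fold change was 0.11 over 6 arrays and -0.34 without replicate 1, so this array set its sign. Stat3 1459961_a_at was lower in every Pogz-/- array, with 6.23, 6.52 and 6.42 in Pogz-/- FL and 7.48, 6.78 and 6.83 in Pogz+/+ FL (log2 fold change -0.64, adjusted p = 0.444 by limma over 6 arrays, and -0.42 without replicate 1). Stat3 1424272_at varied most of the 4 between Pogz-/- livers, with 6.20, 4.08 and 4.94 in Pogz-/- FL and 6.47, 6.61 and 5.92 in Pogz+/+ FL. Its log2 fold change of -1.26 had an SE of 0.59 and an adjusted p of 0.445.

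The feedback inhibitors had 10 probe sets, 6 higher and 4 lower in Pogz-/- FL over 6 arrays, and none was called with 6 arrays or with 5 (lowest adjusted p = 0.431 by limma and 0.109 with trend and robust). Cish, a direct target of STAT5 in blood cells with the doubled motif shown above, had 1 probe set. Cish 1448724_at had 8.27, 8.33 and 7.85 in Pogz-/- FL and 7.72, 7.60 and 8.07 in Pogz+/+ FL. Replicate 3 of each genotype lay within the range of the other genotype, so the groups overlapped. The log2 fold change was 0.35 (SE 0.28, adjusted p = 0.589 by limma over 6 arrays) and 0.32 (SE 0.20, adjusted p = 0.479, trend and robust) without replicate 1.

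Socs2, which restrains growth hormone and STAT5 signalling, had 6 probe sets, of which 2 were at or above the median of all probe sets. Socs2 1418507_s_at had 7.20, 6.73 and 6.82 in Pogz-/- FL and 6.46, 6.23 and 6.23 in Pogz+/+ FL. Every Pogz-/- array was higher: the log2 difference was 0.61 over 6 arrays (SE 0.26, adjusted p = 0.431 by limma) and 0.69 (SE 0.23, adjusted p = 0.173, trend and robust) without replicate 1. Its probes, by the suffix _s_at, can match transcripts of more than 1 gene. Socs2 1449109_at had 6.55, 6.49 and 6.54 in Pogz-/- FL and 6.20, 6.18 and 6.32 in Pogz+/+ FL, again without overlap, and the log2 fold change was 0.29 (SE 0.22, adjusted p = 0.573 over 6 arrays). The 4 dim ones, 1438470_at, 1441476_at, 1442586_at and 1446085_at, had log2 fold changes between -0.92 and 0.35 over 6 arrays and between -0.10 and 0.47 over 5, and over 6 their arrays overlapped between genotypes.

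Socs3, the inhibitor that binds the erythropoietin receptor and receptors of the interleukin-6 family, had 3 probe sets that split. Socs3 1455899_x_at had 8.37, 7.62 and 8.19 in Pogz-/- FL and 9.19, 8.57 and 8.62 in Pogz+/+ FL. Socs3 1456212_x_at had 7.75, 7.28 and 7.42 in Pogz-/- FL and 7.78, 8.03 and 8.20 in Pogz+/+ FL. Both lay below Pogz+/+ in every Pogz-/- array, with log2 fold changes of -0.73 (SE 0.33) and -0.52 (SE 0.27) over 6 arrays and of -0.53 (SE 0.20) and -0.63 (SE 0.18) without replicate 1. Neither passed the test (adjusted p = 0.441 and 0.468 by limma, and 0.236 and 0.109 with trend and robust). The suffix _x_at marks probes that can bind other transcripts, and Socs3 1416576_at, which has no such mark, had 6.70, 6.63 and 6.65 in Pogz-/- FL and 5.91, 6.65 and 6.47 in Pogz+/+ FL. That probe set was 0.32 higher in Pogz-/- FL over 6 arrays (SE 0.29, adjusted p = 0.634) and 0.10 higher without replicate 1 (SE 0.22, adjusted p = 0.866, trend and robust), with overlap in both.

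Because the median intensity differed between genotypes, the scale of the arrays bore on all of these values. When the 5 arrays were centred on their medians, which placed the median log2 fold change of all probe sets at 0.14, 5 member probe sets rose (limma, trend and robust) and 6.14% of all probe sets did. They were Jak1 1433805_at (adjusted p = 0.000364), Jak1 1433803_at (0.0132), Jak2 1421065_at (0.0223), Stat5b 1422103_a_at (0.0345) and Socs2 1418507_s_at (0.0346). After quantile normalization of the same arrays, only Jak1 1433805_at was called.

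The rest of the pathway was read from a list of 90 genes, of which 81 had a probe set, 201 in all. None was called over 6 arrays, where 9 were higher and 15 lower at an unadjusted p under 0.05 (11.7% of all probe sets passed in either direction), and the median log2 fold change was -0.02. Without replicate 1 and with trend and robust, 4 of the 201 rose and 4 fell, in 6 genes, where 1.45% of all probe sets rose and 1.22% fell. The ligands, with 15 probe sets for 8 genes, had the lowest median, -0.60 over 6 arrays, and 9 of the 15 were dim. Epo itself was not among the measured genes. The ligand with the strongest statistic was Il11, a cytokine of the interleukin-6 family, whose 1449982_at had 0.89, 1.42 and 1.90 in Pogz-/- FL and 3.19, 3.78 and 2.74 in Pogz+/+ FL (adjusted p = 0.373 by limma over 6 arrays). Those values are all below the median of all probe sets, 4.91.

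Among 40 probe sets of 18 receptor genes, 1 rose without replicate 1. Kit, the receptor for stem cell factor that works beside the erythropoietin receptor in early erythroid cells, had 8.98, 8.80 and 9.01 in Pogz-/- FL and 6.90, 8.07 and 7.98 in Pogz+/+ FL for 1452514_a_at. It was higher in every Pogz-/- array, by 1.28 over 6 arrays (SE 0.39, adjusted p = 0.388 by limma) and by 0.91 without replicate 1 (SE 0.14, adjusted p = 0.00696, trend and robust). The second Kit probe set, 1415900_a_at, was -0.11 over 6 arrays and overlapped. Kit is also a marker of early progenitors. The summed intensity of all 5 progenitor markers was 3265 to 3635 in Pogz-/- FL and 2018 to 2722 in Pogz+/+ FL, and none was at 0. The markers did not move together: Kit (1.28) and Myb (0.58) were higher in every Pogz-/- array, Meis1 (-0.55) was lower in every one, and Gata2 (-0.32) and Cd34 (-0.14) overlapped (log2 fold changes over 6 arrays). Granulocyte markers were also higher in sum, at 14812 to 16569 in Pogz-/- FL and 11998 to 13210 in Pogz+/+ FL, with 3 of 6 higher in every Pogz-/- array. The part of these cells in the Kit and Jak1 values was not tested.

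**Figure D4:**
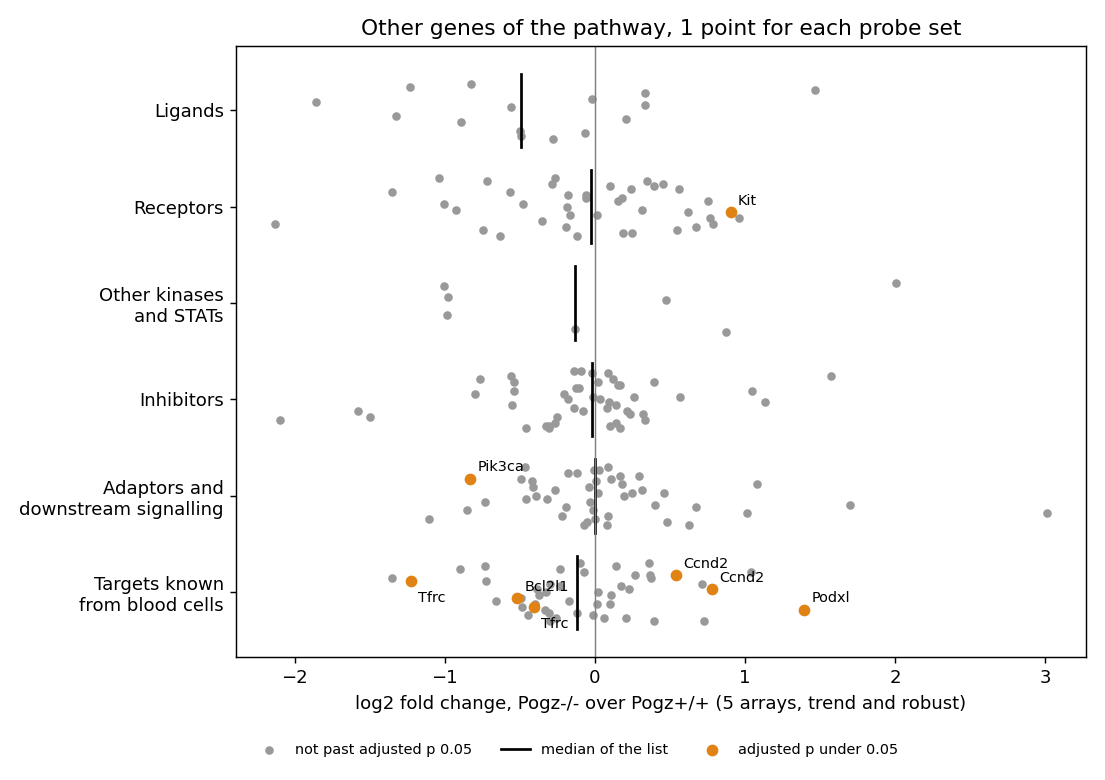
Log2 fold change, Pogz-/- over Pogz+/+ (x axis), of the 201 probe sets of other pathway genes by group (y axis) over 5 arrays with trend and robust. Orange points passed an adjusted p of 0.05, grey points did not, and black bars are the medians of the groups. The 8 orange points lie between -1.22 for Tfrc and 1.40 for Podxl.

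Among 47 probe sets of targets known from erythroid or other blood cells, 3 rose and 3 fell without replicate 1, against the same 1.45% and 1.22% of all probe sets. Tfrc, the transferrin receptor that brings iron into erythroblasts, fell by 1.22 for 1422966_a_at (SE 0.13, adjusted p = 0.00134 by limma with trend and robust), with 11.0, 10.53 and 10.65 in Pogz-/- FL and 12.84, 12.06 and 11.84 in Pogz+/+ FL. Tfrc 1452661_at fell by 0.41 (SE 0.08, adjusted p = 0.0194), but this call was lost with quantile normalization (adjusted p = 0.385) and with median centring (0.440), and 1422967_a_at overlapped. Bcl2l1, which encodes the survival protein BCL-XL, had 9.72, 10.00 and 9.86 in Pogz-/- FL and 10.61, 10.42 and 10.34 in Pogz+/+ FL for 1420888_at. It fell by 0.52 (SE 0.11, adjusted p = 0.0349 without replicate 1), a call that was lost when arrays were centred on their medians (adjusted p = 0.280). The other Bcl2l1 probe sets were called in no setting.

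The targets with a probe set that rose were Podxl and Ccnd2. Podxl, a sialomucin of progenitors and endothelium, had 9.45, 8.39 and 9.03 in Pogz-/- FL and 7.36, 7.53 and 7.59 in Pogz+/+ FL for 1448688_at. It rose by 1.40 (SE 0.25, adjusted p = 0.0139 by limma with trend and robust), and its groups did not overlap. The other Podxl probe set, 1417396_at, was called in no setting, with log2 fold changes between -0.75 and 0.06. Ccnd2, the cell cycle protein cyclin D2, had 10.39, 10.03 and 9.96 in Pogz-/- FL and 9.36, 9.26 and 9.42 in Pogz+/+ FL for 1434745_at. It rose by 0.78 (SE 0.14, adjusted p = 0.0147), and Ccnd2 1416122_at rose by 0.54 (SE 0.12, adjusted p = 0.0422), a call that quantile normalization ended (adjusted p = 0.0812). No other Ccnd2 probe set was called in this fit. Ccnd2 1430127_a_at and 1455956_x_at were called, as higher, only after median centring. Ccnd2 1448229_s_at, 1416124_at and 1416123_at were called in no setting. Their log2 fold changes lay between -0.06 and 0.55, between -0.38 and 0.49, and between 0.07 and 0.97. All of these calls are from the fit without replicate 1, and over 6 arrays none of the 47 passed.

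Of 45 probe sets of adaptors and downstream proteins, 1 fell without replicate 1. Pik3ca, the catalytic subunit of phosphoinositide 3-kinase, had 8.12, 8.27 and 7.80 in Pogz-/- FL and 8.79, 8.66 and 9.13 in Pogz+/+ FL for 1453134_at. It fell by 0.83 (SE 0.19, adjusted p = 0.0390 by limma with trend and robust), while Pik3ca 1460326_at was 0.24 higher and not called. The scale decided which was called: after median centring of the same arrays 1453134_at was not (adjusted p = 0.108) and 1460326_at was, as higher by 0.52 (adjusted p = 0.0429). Chosen after its value was seen, Gab1 1448814_at, for an adaptor that links receptors to phosphoinositide 3-kinase, had the largest log2 fold change of the list, with 4.66, 5.58 and 4.90 in Pogz-/- FL and 1.80, 1.72 and 2.35 in Pogz+/+ FL. Its log2 fold change was 3.09 (SE 0.36, adjusted p = 0.211 over 6 arrays) and 3.01 (SE 0.79, adjusted p = 0.0780, trend and robust) without replicate 1. The signal in Pogz+/+ FL was far below the median of all probe sets, and the brighter Gab1 1417693_a_at was 0.22 higher over 6 arrays, with overlap.

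Neither the other kinases and STATs (7 probe sets) nor the other inhibitors (47 probe sets) held a call with 6 arrays or with 5. The strongest statistic of the kinases and STATs was that of Stat2 1450403_at, for a factor of type I interferon signalling, with 3.63, 4.19 and 4.22 in Pogz-/- FL and 6.08, 5.08 and 4.91 in Pogz+/+ FL (log2 fold change -1.34, adjusted p = 0.389 by limma over 6 arrays). For the inhibitors it was Socs7 1420766_at, with 5.74, 5.76 and 5.88 in Pogz-/- FL and 7.01, 6.55 and 6.56 in Pogz+/+ FL (log2 fold change -0.91, adjusted p = 0.385). Both were lower in every Pogz-/- array, and other Socs7 probe sets overlapped between genotypes. The Pogz-/- values of Stat2 1450403_at were all below the median of all probe sets, 4.91. Stat2 1421911_at was called in no setting, with log2 fold changes between -1.92 and 1.21.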

How the data were processed

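The authors deposited linear probe set intensity values made in Affymetrix Expression Console from 100 ng RNA labelled by 3' IVT. Its version and its algorithm were not given in any source used here. The deposited intensity has the same 2% trimmed mean, 150, in each array, while medians differ. Genotype and replicate number came from the sample labels, which call the replicates biological. Log2 was taken with no pseudocount. After 64 controls were left out, 45037 probe sets entered a linear model of genotype in limma 3.58.1 (R 4.3.3) with lmFit and eBayes. P-values are two-sided, with Benjamini-Hochberg adjustment across the whole table. Of the probe sets, 34945 name 1 gene in the platform annotation, 932 several and 9160 are unnamed here. Detection calls were not used here, and precision is limited by the number of arrays.

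The second fit left out Pogz+/+ replicate 1 and used limma's trend and robust settings, with 2 Pogz+/+ arrays left. The members, gene lists and fits were chosen with earlier results of these data known. All member probe sets are reported. Other pathway genes are named where called in either fit, or as the strongest statistic of a group without a call. Gab1, and second probe sets of named genes, were added outside this rule after their values were seen. Alternatives were quantile normalization, median centring, no dim probe sets, a pseudocount of 16, trend and robust, a replicate block, each array left out in turn, the β-actin ratio or Xist as a covariate, the methods' t-test and 1 probe set for each gene. Their use on the pathway list, and trend and robust without each of the other arrays, were added after seeing the data. The calculations were tested on simulated data.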

Additional observations from a re-analysis of the deposited data

How the results depend on the processing

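The count of member probe sets called was 0 over 6 arrays and stayed at 0 with each array left out in turn (plain fit). It was 1 without Pogz+/+ replicate 1 with trend and robust, 1 with quantile normalization added and 5 with median centring added. For the pathway list the count of 0 became 8, 7 and 18 in those settings, and all other settings gave 0 for both. The Jak1 minus Jak2 shift of 1.55 was -0.39 for Jak1 1433804_at and Jak2 1421065_at. Of the 26 probe sets, 18 kept 1 direction in the 10 settings planned for each, and none of the 8 that turned was called in any of them. Median centring over 6 arrays put the median log2 fold change of all probe sets at 0.23. The log2 fold change was then 0.21 for Epor, 0.45 for Jak2 1421066_at, 0.22 for Tyk2 1417306_at, 0.38 for Stat5b 1422102_a_at and 0.46 for Socs2 1446085_at. After quantile normalization the last 2 were at 0.35 and 0.50. Over 5 arrays with trend and robust, Stat3 1460700_at was at -0.34, Stat5b 1422102_a_at at 0.55 and Socs2 1446085_at at 0.20. Leaving out 1 array turned 6 probe sets, with ranges of -0.065 to 0.085 for Jak2 1421066_at, -0.34 to 0.42 for Stat3 1460700_at, -0.64 to 0.55 for Stat5b 1422102_a_at, -0.54 to 0.96 for Socs2 1438470_at, -0.28 to 0.31 for Socs2 1442586_at and -0.13 to 0.20 for Socs2 1446085_at. Beyond scale and array choice, the cause was not tested. Same-numbered arrays did not deviate together (r = 0.00784, -0.00444 and -0.00503 for numbers 1, 2 and 3), and the fit with a replicate block called 0 member probe sets and 0 of the pathway list. Signal near background limits the 6 dim probe sets.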
